A study of Mus musculus with 6 samples.

Results

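In all, 10 imprinted genes with roles in growth were followed across 6 primary cultures of mouse dorsal root ganglia, which hold the sensory neurons and their glia beside the spinal cord. The members were the rows of the deposited count table named H19, Meg3, Peg3, Mest, Plagl1, Grb10, Peg10, Dlk1, Ndn and Nnat, 10 of 45703 genes, and all 10 were found once. The rule that picks them uses gene names and no measured value, although the list was drawn up with earlier results of these data known. The donors were wild-type animals of the C57BL/6 strain, 4 to 6 weeks old. Ganglion cells were cultured for 7 days. The medium contained 10% serum plus the growth factors EGF and FGF (10 ng/ml), and each sample joined RNA from 2 dishes. All 6 samples belonged to 1 group, so the comparisons below are between replicate cultures and between genes, not between conditions.

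Imprinted genes are transcribed mainly from the copy inherited from one parent, and many of them lie in clusters that share a control region. As a class they are known for regulating fetal growth, where paternally expressed genes tend to promote growth and maternally expressed genes tend to restrain it. Among the genes followed here, H19 and Meg3 are maternally expressed noncoding RNAs, Grb10 is maternally expressed in most tissues and paternally in neurons, and the others are paternally expressed. The counts do not separate the parental copies, so imprinting itself was not measured.

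The libraries held 20070639 to 22968642 counts. Levels are given as CPM, the counts of a gene scaled to a common library size of 1000000 counts, and levels of different genes are compared only as CPM per kb of combined exon length. Markers of the glial lineage, neurons and fibroblasts were all present, with 0 of 8, 0 of 12 and 0 of 8 genes at or under 3 counts in every library. Replicates 1 and 5 stood apart. The summed level of the fibroblast markers was lowest in replicate 1 (3382 CPM) and highest in replicate 5 (13966 CPM). The summed levels of the macrophage, endothelial and mural lists were also lowest in replicate 1 and highest in replicate 5. Not every gene of these lists followed its sum. Lum and C1qa were highest in replicate 4, Aif1 and Des in replicate 3, and Cspg4 and Myh11 in replicate 6. Pecam1 and Myh11 were lowest in replicate 2, Kdr in replicate 3, and Cldn5 had 0 counts in replicates 2, 3 and 6. In replicate 5 the glial lineage list (4495 to 6566 CPM over the 6 libraries) and the neuron list (1110 to 2417 CPM) were at their lowest. In such bulk libraries, fewer cells of a type and less RNA per cell cannot be told apart.

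Both noncoding members carry miRNA hairpins, and reads on those hairpins bear on how the hosts were counted, so the mature miRNAs of the hairpins that lie in an annotated exon are shown first. They are RefSeq sequences for GRCm38.p6, written 5′ to 3′, with the seed (bases 2 to 8) in capitals.
mmu-miR-675-5p: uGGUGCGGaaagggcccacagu
mmu-miR-675-3p: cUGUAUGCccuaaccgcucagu
mmu-miR-1906: uGCAGCAGccugaggcagggcu
mmu-miR-770-5p: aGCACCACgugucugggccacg
mmu-miR-770-3p: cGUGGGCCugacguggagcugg

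The 5 miRNAs have 5 different seeds. The Mir675 hairpin lies inside H19, in an exon of 3 of 7 transcripts annotated by GENCODE, and the Mir1906-1 and Mir770 hairpins inside Meg3, in an exon of 5 and of 1 of its 11 transcripts. Mir675 was counted at 3, 64.5, 47.5, 96, 267 and 56.5 counts in replicates 1 to 6. That was 3.70% to 4.87% of the sum of Mir675 and H19. Mir770 held 7.5 to 24 counts, or 0.112% to 0.199% of its sum with Meg3. Mir1906-1 held more, 47.5 to 127.25 counts, or 0.681% to 1.06% of its sum with Meg3. A second copy of this hairpin on chromosome X, Mir1906-2, has the same mature sequence and held 19 to 30.5 counts, so reads on the copies may be split between them. Poly-A libraries do not measure mature miRNAs, so these counts say nothing of miRNA levels.

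H19 (chromosome 7, 142575530 to 142578146, GRCm38.p6, minus strand) differed most between cultures. It is a long noncoding RNA that is abundant in embryonic tissues and falls to low levels in most tissues after birth. Its level was 3.4 CPM in replicate 1, 68.6 in replicate 2, 42.8 in replicate 3, 110.1 in replicate 4, 269.7 in replicate 5 and 65.1 in replicate 6. Replicate 1 was low and replicate 5 high against the other 4, and the ratio between these libraries was 79.4. The 95% Wilson intervals, which cover counting error only, ran from 2.72 to 4.24 CPM in replicate 1 and from 263 to 277 CPM in replicate 5. H19 had a coefficient of variation of 99.2%, higher than that of 99.6% of the 14998 genes tested. Without replicates 1 and 5 the range was 42.8 to 110.1 CPM, a ratio of 2.57. The order of the cultures by H19 is shown beside that of the other members in the heat map of differences from the gene mean.

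**Figure D1:**
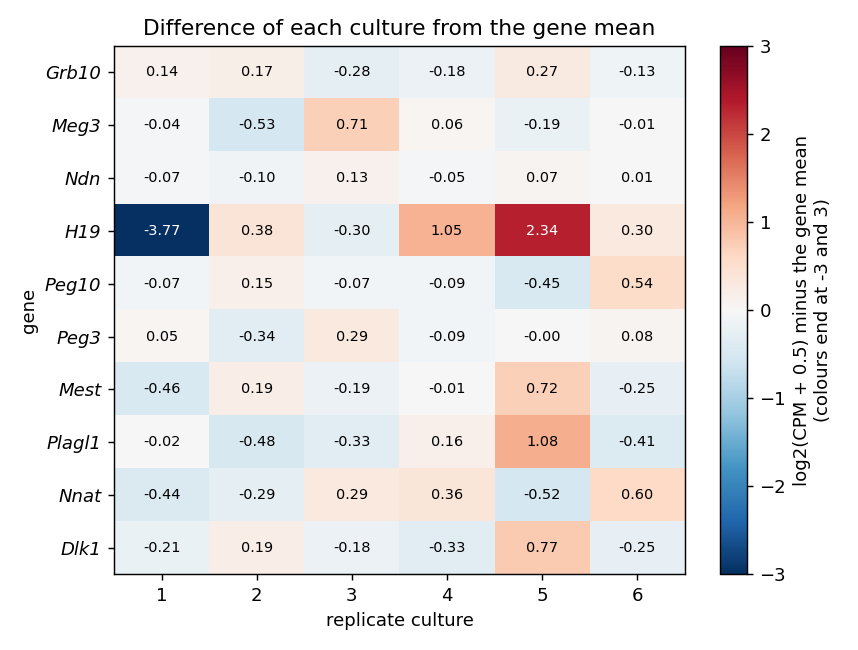
Heat map of the difference of each culture from the mean of the gene, as log2(CPM + 0.5), for the 10 genes (rows) in 6 replicate cultures (columns), with each value printed. H19 spans the widest range, from -3.77 in replicate 1 to 2.34 in replicate 5, and Ndn the narrowest, from -0.10 to 0.13.

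Meg3 (chromosome 12, 109540996 to 109571729, plus strand), a noncoding RNA of the Dlk1-Dio3 cluster that is known as a growth suppressor, followed another order. Its lowest, median and highest levels were 251, 357 and 595 CPM, the lowest in replicate 2 and the highest in replicate 3. Replicate 3 was high and the other 5 lay between 251 and 378 CPM. The mean was 376 ± 116 CPM (SD, n = 6). The neuron markers were also highest in replicate 3. Rtl1, which overlaps Meg3 by 6830 bases on the opposite strand, had at most 3 counts in every library.

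Whether the cultures differed by more than counting noise was asked by a chi-square comparison of the 6 counts per gene with the counts its total would give each library by size, scaled with edgeR's TMM factors and adjusted by the Benjamini-Hochberg method over all genes tested. It called 76.3% of the 14998 genes tested, so a call is the rule in these libraries. Of the 10 members, 9 passed the filter on low counts and all 9 were called. Dlk1 did not pass the filter. The statistics of the 9 on the same 5 degrees of freedom ran from 12 for Ndn to 10004 for H19, with Meg3 at 3540. Such a statistic grows with the total count of a gene, so it does not rank genes by how much they varied. Plagl1 had a statistic of 683 and a coefficient of variation of 49.3%, against 29.4% for Meg3. The median coefficient of variation was 29.4% over the 9 members and 12.1% over all genes tested. The difference between these medians was not tested.

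Grb10 (chromosome 11, 11930499 to 12037428, minus strand) encodes an adaptor protein that binds the insulin and IGF1 receptors and dampens their signal. It had the highest mean level per length of the 10 genes, 53.7 ± 8.27 CPM per kb (SD, n = 6), above 92.2% of all genes tested. Its lowest, median and highest levels were 230, 280.5 and 337 CPM. Replicates 1, 2 and 5 lay between 306 and 337 CPM, and replicates 3, 4 and 6 between 230 and 255 CPM. The receptors it acts on were both present, Insr at 119 ± 11.4 CPM and Igf1r at 90.6 ± 7.72 CPM (SD, n = 6). A noncoding row on the same strand, LOC102631979, overlapped Grb10 by 9120 bases at a mean of 9.43 CPM, so reads there could belong to either.

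Dlk1 (chromosome 12, 109452485 to 109463336, plus strand) encodes a membrane protein with EGF-like repeats that acts on Notch signalling and marks preadipocytes. It was counted 6, 11, 6, 4, 21 and 5 times in replicates 1 to 6, which was 0.199 to 1.00 CPM. Its level per length, 0.0845 ± 0.0629 CPM per kb (SD, n = 6), was above that of 0.260% of the genes tested. Dlk1 itself did not pass the filter on low counts, so a low place among the genes that passed is largely set by the filter. Replicate 5 was the highest, with a 95% Wilson interval of 0.656 to 1.53 CPM that overlapped the 0.280 to 0.897 CPM of replicate 2. Notch1 was present at 217 ± 32.2 CPM (SD, n = 6). Meg3 and Dlk1 lie 77.7 kb apart in one cluster, and Meg3 per length was 120 to 812 times the level of Dlk1.

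**Figure D2:**
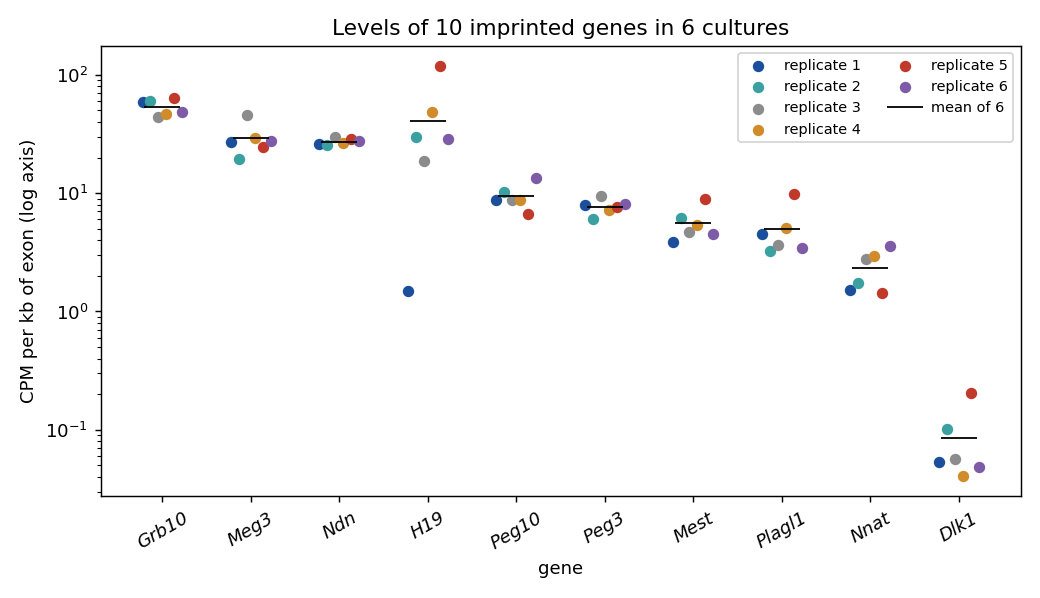
Levels of the 10 genes as CPM per kb of exon on a log axis, ordered by mean log2 level, with 1 point per replicate culture and a bar at the mean of 6. Grb10 is at the left with a mean of 53.7, H19 runs from 1.48 to 118, and Dlk1 reaches at most 0.205.

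Plagl1 (chromosome 10, 13090832 to 13131694, plus strand) encodes a zinc finger transcription factor that can halt the cell cycle and is known to act on other imprinted genes. Its levels were 24.1, 17.4, 19.3, 27.3, 52.4 and 18.3 CPM in replicates 1 to 6. Replicate 5 was high and the other 5 lay between 17.4 and 27.3 CPM. The fold between the highest and lowest culture was 3.01, and 1.57 without replicates 1 and 5. Hymai, a noncoding row that overlaps Plagl1 by 5056 bases on the same strand, had 1 to 6 counts.

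Peg3 (chromosome 7, 6703892 to 6730462, minus strand) encodes a large zinc finger protein linked to cell death and to maternal care, which binds Siah1a and Traf2. Its lowest, median and highest levels were 69.4, 89.4 and 107.8 CPM, and no culture was far from the others. Siah1a averaged 27.5 ± 2.24 CPM and Traf2 27.3 ± 1.95 CPM (SD, n = 6).

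Ndn (chromosome 7, 62348277 to 62349928, plus strand) encodes necdin, a MAGE family protein of postmitotic neurons that binds E2f1 and lies in the region of the Prader-Willi syndrome. It was the steadiest of the 10, at 42.1 to 49.4 CPM, with a coefficient of variation of 4.95% that was above that of 8.61% of all genes tested. Its call beyond counting noise was marginal (edgeR TMM scaling, chi-square, adjusted p = 0.0462). The call was lost without replicate 1, 2, 3 or 5, with adjusted p-values of 0.0575, 0.0534, 0.195 and 0.0581, and was kept without replicate 4 or 6. The neighbouring MAGE gene Magel2 was counted 2 times in replicate 1 and 0 times elsewhere, and lies 27.1 kb away (Ndn was higher in 6 of 6 libraries). E2f1 averaged 23 ± 2.91 CPM (SD, n = 6).

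Peg10 (chromosome 6, 4747306 to 4760517, plus strand) derives from a retrotransposon and is needed for placenta formation. Its levels ran from 44.8 CPM in replicate 5 over a median of 58.5 to 89.7 CPM in replicate 6, and the other 4 cultures lay between 57.8 and 68.1 CPM.

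Mest (chromosome 6, 30733506 to 30748466, plus strand) encodes an enzyme-like protein of the endoplasmic reticulum that is induced when fat tissue expands. It was at 11.3, 18.1, 13.8, 15.6, 26.2 and 13.2 CPM in replicates 1 to 6. As for H19, the lowest culture was replicate 1 and the highest replicate 5. Over all genes tested, 23.8% were lowest in replicate 1 and 29.2% highest in replicate 5, and of the 9 members that passed the filter 2 were lowest in the former and 4 highest in the latter.

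Nnat (chromosome 2, 157560078 to 157562525, plus strand) encodes a small membrane protein of the endoplasmic reticulum that acts on the calcium pump Atp2a2 and is abundant in the developing nervous system. Its levels were low, with a median of 3.03 CPM, a lowest value of 1.91 in replicate 5 and a highest of 4.73 in replicate 6. Replicates 3, 4 and 6 lay at 3.74 or above and the other 3 at 2.32 or below. Nnat lies wholly within Blcap on the opposite strand, and Blcap averaged 36.7 ± 2.34 CPM (SD, n = 6). Atp2a2 averaged 410 ± 28.5 CPM.

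By mean log2(CPM per kb + 0.1), the order of levels was Grb10, Meg3, Ndn, H19, Peg10, Peg3, Mest, Plagl1, Nnat and Dlk1. By the plain mean, H19 came second at 40.8 ± 40.7 CPM per kb (SD, n = 6), but without replicate 5 its mean was 25.3 CPM per kb, below Meg3 at 29.9 and Ndn at 27 in the same 5 libraries, so the second place rests on replicate 5. Neighbours in this order were compared within each library by flipping signs in a two-sided exact permutation test, whose smallest p over 6 libraries is 0.0312. Of 9 neighbouring pairs, 0 passed after adjustment over the 9 (exact permutation, lowest adjusted p = 0.188), and 1 had an unadjusted p under 0.05. That pair was Nnat above Dlk1, by 3.70 ± 0.880 on the log2 scale and in 6 of 6 libraries. Over all 45 pairs of members, 28 had the same gene higher in 6 of 6 libraries, and none passed after adjustment (exact permutation, lowest adjusted p = 0.0502). Grb10 was above Ndn, Peg10, Peg3, Mest, Plagl1, Nnat and Dlk1 in every library, and Meg3 and Ndn each above Peg10 and the 5 genes that follow it. Peg10, Peg3 and Mest were each above Nnat in 6 of 6 libraries, and Dlk1 was below each of the other 9. With the smallest p given above, a pair cannot pass the adjustment unless many others reach that p too, however large its difference. Grb10 above Dlk1, by 8.23 ± 0.292 on the log2 scale, did not pass either. The lack of passing pairs therefore does not show that levels were alike, and these counts are a description.

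Each member was then set beside the marker content of the same libraries. A marker score was the mean log2(TMM-scaled CPM + 0.5) of a list, and 30 relations of 10 genes with 3 scores were computed over the 6 libraries. None passed after adjustment over the 30, and 6 had an unadjusted p under 0.05 by Pearson's r. By Spearman's rho 1 did, H19 with the neuron score (rho = -0.89, exact permutation p = 0.0333, adjusted 0.350). Its r was -0.59 (exact permutation p = 0.203, adjusted 0.388), and -0.27 without replicates 2 and 5. H19 with the fibroblast score gave r = 0.90 (exact permutation p = 0.0167, adjusted 0.167) and rho = 0.83 (exact permutation p = 0.0583, adjusted 0.350). The r without replicates 1 and 5 was 0.76. Mest with the fibroblast score gave r = 0.86 (exact permutation p = 0.0306, adjusted 0.181) and rho = 0.83 (p = 0.0583, adjusted 0.350), but r = 0.18 without replicates 1 and 5, so that relation rests on these libraries. Plagl1 with the glial lineage score gave r = -0.99 (exact permutation p = 0.00556, adjusted 0.167) and rho = -0.83 (p = 0.0583, adjusted 0.350), with r = -0.99 without replicates 5 and 6. Meg3 and the neuron score had r = 0.83 (exact permutation p = 0.0361, adjusted 0.181) and rho = 0.71 (p = 0.136, adjusted 0.454), with r = 0.82 without replicates 2 and 5. Mest with the neuron score had r = -0.88 (exact permutation p = 0.0167, adjusted 0.167) and rho = -0.83 (p = 0.0583, adjusted 0.350), with r = -0.42 without replicates 2 and 5. For Dlk1 with the neuron score r was -0.81 (exact permutation p = 0.0361, adjusted 0.181) and rho -0.43 (p = 0.419, adjusted 0.740), and r turned to 0.89 without replicates 2 and 5. The part of cell makeup in these levels was not tested. The plot of genes against marker scores gives r for all 30.

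**Figure D3:**
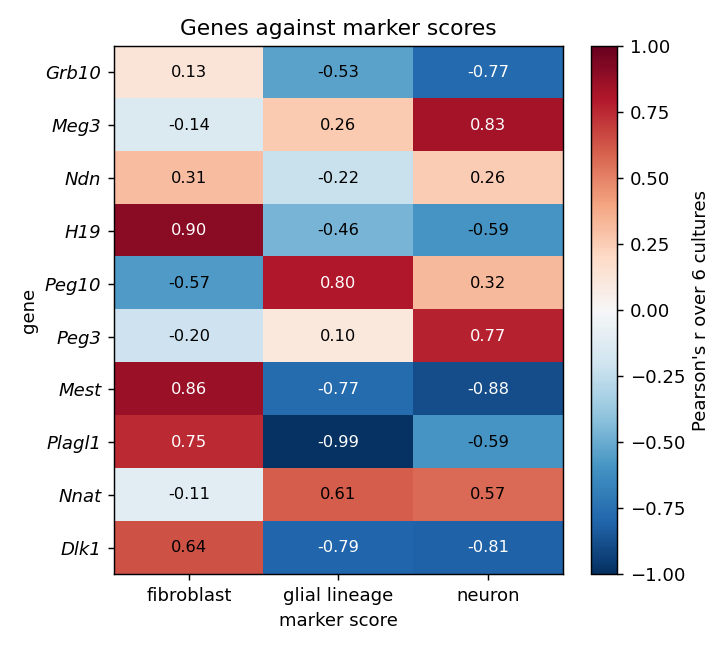
Heat map of Pearson's r over 6 cultures between each of the 10 genes (rows) and the fibroblast, glial lineage and neuron marker scores (columns), with each r printed. H19, Mest and Plagl1 have r of 0.75 to 0.90 with the fibroblast score, Meg3 and Peg3 have r of 0.83 and 0.77 with the neuron score, and none of the 30 passed after adjustment.

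**Figure D4:**
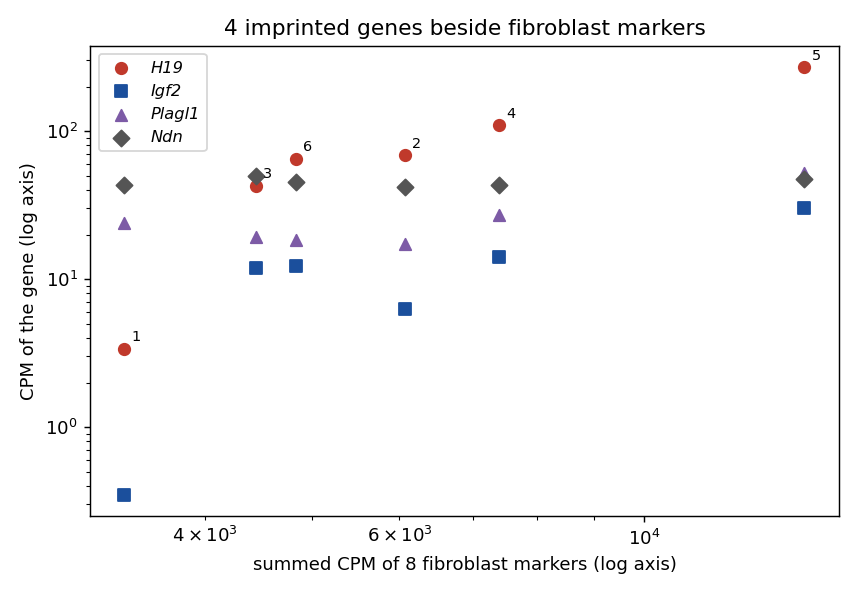
Levels of H19, Igf2, Plagl1 and Ndn (CPM, log axis) against the summed CPM of 8 fibroblast markers (log axis), 1 point per culture, with replicate numbers beside the H19 points. H19 and Igf2 are lowest in replicate 1 and highest in replicate 5, and Ndn stays between 42.1 and 49.4 CPM.

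Among the members, of 45 pairs, 3 had an unadjusted p under 0.05 by Pearson's r and 0 passed after adjustment (exact permutation, lowest adjusted p = 0.492). Grb10 and Meg3 gave r = -0.83 (exact permutation p = 0.0125, adjusted 0.492) and rho = -0.94 (p = 0.0167, adjusted 0.750), and r = -0.88 without replicates 2 and 3. The others were Meg3 with Peg3 (r = 0.88, rho = 0.66, exact permutation p = 0.0403 and 0.175, adjusted 0.492 and 0.786) and Mest with Dlk1 (r = 0.91, rho = 0.60, exact permutation p = 0.0292 and 0.242, adjusted 0.492 and 0.786). With replicates 2 and 3 left out, r for the former was -0.054, and with replicates 2 and 5 left out the latter had r = -0.79, so both rest on those cultures. By Spearman's rho, H19 with Mest also had an unadjusted p under 0.05 (rho = 0.89, exact permutation p = 0.0333, adjusted 0.750). Its r was 0.80 (exact permutation p = 0.0806, adjusted 0.492), and 0.92 without replicates 2 and 5.

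Imprinted neighbours of the members were then compared with them. Of 12 fixed pairs in 1 cluster each, 6 had both genes past the filter, and 3 of these 6 passed after adjustment by Pearson's r, whereas 0 passed by Spearman's rho. A high r is not particular to neighbours. Of 11925 genes outside the members with a mean of at least 5 CPM, 62 reached r of at least 0.95 with Peg10 and 24 with Peg3. Peg10 and Sgce, the gene of a muscle membrane protein that starts 101 bases away on the other strand, gave r = 0.92 (exact permutation p = 0.0111, adjusted 0.0333) and rho = 0.94 (p = 0.0167, adjusted 0.05, not under the threshold), and r = 0.77 without replicates 5 and 6. Sgce was lowest in replicate 5 (92.5 CPM) and highest in replicate 6 (118 CPM), the cultures where Peg10 was lowest and highest. Sgce per length was the higher of both in 6 of 6 libraries, with Peg10 at 0.185 to 0.290 of its level. Peg3 and Zim1, a zinc finger gene 7.35 kb away, had r = 0.92 (exact permutation p = 0.00833, adjusted 0.0333) and rho = 0.94 (p = 0.0167, adjusted 0.05, not under the threshold), with r = 0.70 without replicates 2 and 3. Zim1 held only 25 to 43 counts and did not itself pass the test against counting noise (edgeR TMM scaling, chi-square, adjusted p = 0.349), so counting noise limits its order over the cultures. Mest and Copg2, a coat protein gene that overlaps the end of Mest by 913 bases on the other strand, gave r = -0.89 (exact permutation p = 0.0194, adjusted 0.0389) and rho = -0.71 (p = 0.136, adjusted 0.210), and r = -0.89 without replicates 2 and 5. Meg3 with Rian and Mirg, the noncoding RNAs that follow it, gave r = 0.76 and 0.70 and rho = 0.66 for both (exact permutation p = 0.0736, 0.104 and 0.175, adjusted 0.110, 0.125 and 0.210). Without replicates 2 and 3, r was -0.53 and -0.66, so these relations rest on those libraries. All 3 genes were highest in replicate 3 and lowest in replicate 2. Nnat and Blcap gave r = -0.28 and rho = -0.43 (exact permutation p = 0.586 and 0.419, adjusted 0.586 and 0.419), and r = 0.31 without replicates 5 and 6.

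Igf2 (chromosome 7, 142650768 to 142666816), the paternally expressed growth factor that shares enhancers with H19, missed the filter through replicate 1. Its levels were 0.348, 6.24, 12, 14.2, 30.2 and 12.3 CPM in replicates 1 to 6, lowest and highest in the same cultures as H19. Both genes lie 72.6 kb apart, and H19 per length was 8.89 to 27.3 times the level of Igf2. When pairs were kept where each gene reached 10 counts in any library, a choice made after the data were seen, 9 pairs were tested and 4 passed by r. H19 with Igf2 was the fourth, with r = 0.96 (exact permutation p = 0.0125, adjusted 0.0375) and rho = 0.83 (p = 0.0583, adjusted 0.175). That r dropped to 0.16 once replicates 1 and 5 were left out, so it rests on them. Igf2r, the receptor that clears IGF2 and is itself imprinted, was lowest in replicate 1 (98.4 CPM) and highest in replicate 5 (264 CPM).

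**Figure D5:**
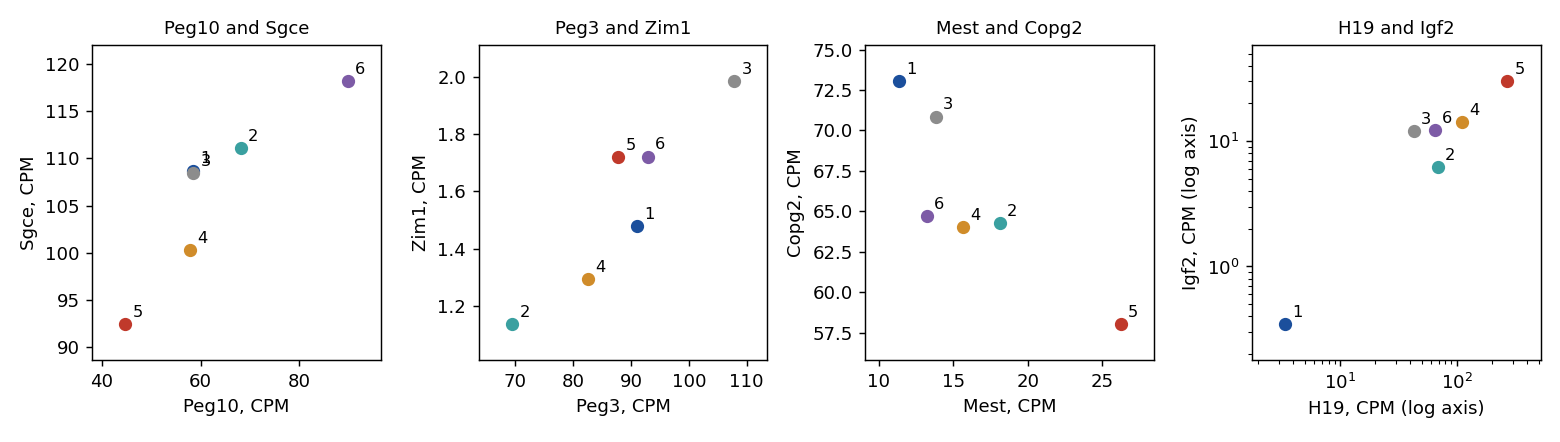
Levels (CPM) of Peg10 and Sgce, Peg3 and Zim1, Mest and Copg2 on linear axes and H19 and Igf2 on log axes, 1 numbered point per replicate culture. Replicate 5 is lowest for both Peg10 and Sgce, replicate 3 highest for both Peg3 and Zim1, and replicate 5 highest for Mest and lowest for Copg2.

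Peg3 and Usp29, a ubiquitin protease gene, start 96 bases apart on opposite strands. Usp29 held 5 to 20 counts, and Peg3 per length was 121 to 400 times its level. The window around the start of Peg3 is shown because it spans this gap. It covers chr7:6730370-6730669 on the minus strand of GRCm38.p6 (RefSeq), 300 bases in all, and the capitals mark the 96 bases between the genes as the count table bounds them.
Peg3-Usp29 window: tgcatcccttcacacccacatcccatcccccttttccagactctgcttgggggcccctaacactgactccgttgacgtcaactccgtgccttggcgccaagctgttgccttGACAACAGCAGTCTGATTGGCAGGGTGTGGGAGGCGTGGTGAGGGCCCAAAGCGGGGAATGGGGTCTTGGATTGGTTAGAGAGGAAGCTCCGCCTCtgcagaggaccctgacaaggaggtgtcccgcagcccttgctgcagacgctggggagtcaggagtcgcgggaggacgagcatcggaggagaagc

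The window holds 13 CG pairs, more than 62.1% of 32851 promoter windows of the same length. It also holds 1 match to GGGGCCCC, the palindrome bound by the Plagl1 protein, which lies 54 bases from the capitals. The motif reads the same on both strands. It was absent from the other 11 windows of the 8 members with a RefSeq window, and 1.08% of all windows hold it. A match is only a description of the letters.

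As the wider family, a fixed list of 48 other imprinted genes was read, of which 47 were in the table. The filter kept 31, and 24 of these varied beyond counting noise, 77.4% against 76.3% of all genes tested. Of the 31 kept genes, 14 were lowest and 6 highest in replicate 5, where 26.2% of all genes tested were lowest and 29.2% highest. The difference from these shares was not tested. The highest per length were Cd81, a membrane tetraspanin, at 407 ± 64 CPM per kb, and Gnas, the stimulatory G protein subunit, at 100.7 ± 5.53 CPM per kb (SD, n = 6). At most 3 counts in every library were found for 7 genes, including the growth restrainer Phlda2 and the transcription factor gene Ascl2 of the Kcnq1 cluster. Cdkn1c, the cell cycle inhibitor of that cluster, was low at 0.988 ± 0.225 CPM and did not pass the test (edgeR TMM scaling, chi-square, adjusted p = 0.325). The 10 named partners of the members in growth control were Igf1r, Insr, Igf2, Igf2r, Cdkn1c, Notch1, Siah1a, Traf2, E2f1 and Atp2a2. Igf2, Igf2r and Cdkn1c are also among the other imprinted genes. Of the 10 partners, 9 passed the filter and 8 varied beyond counting noise, 88.9% of those kept against 76.3% of all genes tested. That difference was not tested.

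Outside the members, the genes most like each one over the 6 libraries were read from 11925 genes with a mean of at least 5 CPM, by Pearson's r as a description. With so few libraries, some genes reached a high r with each member read. The number of the 11925 with r of at least 0.95 ran from 7 for Ndn to 195 for H19. The genes nearest to H19 were Pole (r = 0.996) and Plpp5 (0.995), to Meg3 Coil (0.996) and 0610010F05Rik (0.994), and to Plagl1 Nop58 (0.998) and Esd (0.998). Those nearest to Peg10 were Prc1 (r = 0.999) and Cdh2 (0.997), to Mest Inppl1 (0.995) and Atxn1 (0.990), and to Grb10 Hdac1 (0.980) and Rbm42 (0.979). For Peg3 they were Dnm1l (r = 0.988) and Dgki (0.983), and for Ndn Dcun1d2 (0.979) and Pde7a (0.965).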

How the data were processed

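RNA from 6 cultures was sequenced as stranded poly-A libraries, per the labels' protocols. The submitters' processing notes name bcl2fastq 2.20.0.422, cutadapt 2.5, STAR 2.7.2b, featureCounts 1.6.4 and GRCm38.p6. The authors deposited estimated counts per gene with no scaling, of which 13.4% to 14.7% per library were not whole. The strand setting and the handling of shared reads are not given in the sources used here. Of the members, 5 had fractional counts in at least 1 library (H19, Meg3, Grb10, Peg10 and Plagl1). The other column used, combined exon length in bases, is per the file headers. The table's 45703 gene IDs all matched RefSeq GRCm38.p6.

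Counts were rounded for edgeR 4.0.16 (filterByExpr, TMM) and DESeq2 1.42.0 in R 4.3.3, and levels used unrounded counts. The chi-square test was tested on simulated data. The filter requires enough counts in all 6 libraries. Benjamini-Hochberg adjustment was used within each family, with a threshold of 0.05. The fit held 1 group, so edgeR's quasi-likelihood test had no contrast to test. Members and lists were chosen with earlier results of these data known. Named genes were the members, the fixed lists, and the 2 genes most like each member with a mean of at least 5 CPM. The design text calls the cultures biological replicates but does not say whether each came from other animals. The labels give no batch.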

Additional observations from a re-analysis of the deposited data

How the results depend on the processing

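The number of members called beyond counting noise was 9 with unscaled library totals, with DESeq2 size factors and without the filter on low counts. It was 8 to 9 when 1 replicate was left out. Of all genes tested, 76.9% were called with unscaled totals, 76.3% with DESeq2 size factors and 50.2% without the filter. With 1 replicate left out the share was 66.9% to 74.8%. Without the filter all 10 members were tested, Dlk1 was called (adjusted p = 0.000655) and Ndn was not (0.0675). Over all genes the call ran from 10118 of 15126 to 11253 of 15047 genes with 1 replicate left out. Without replicates 1 and 5 it was 8685 of 15364 genes (56.5%), beside 8 of 9 members. That setting was added once the data had been seen. The number of neighbouring pairs of members that passed was 0 with a pseudocount of 1 and with CPM not divided by length. It was also 0 with adjustment over all 45 pairs, a setting not planned. As stated above, a single pair could not pass by itself. The order did change without division by length. Grb10 was then above Meg3 in 2 of 6 libraries, against 5 of 6 per length, so its first place rests on that division. Peg10 was above Peg3 in 0 of 6 libraries, against 4 of 6 per length, and Mest above Plagl1 in 1 of 6, against 4 of 6. The mean difference also changed sign for Ndn with H19 and for H19 with Peg10. The remaining neighbouring pairs kept their direction. For relations with marker scores and between members, 0 passed under each scaling, pseudocount and measure tried. As 0 also passed in the main setting, this says little of how stable single relations are. With the marker score taken as the median, 3 of the 30 relations changed sign, and 3 rather than 6 had an unadjusted p under 0.05 by r. Between members, 1 of the 45 pairs changed sign with CPM from library totals. For neighbours in a cluster, 3 of 6 passed by r under each scaling and pseudocount, and 0 of 6 by Spearman's rho. Over all results with an alternative, 1 count moved in this way and the others stayed within 1.5 times or within 1 SD. No paired analysis between conditions was possible because all 6 samples belong to 1 group. Low counts limit Dlk1, Zim1 and Usp29 most.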

Other observations

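Imprinted genes outside the members that missed the filter were not all near absence. Dio3, the deiodinase at the far end of the Dlk1-Meg3 cluster that inactivates thyroid hormone, was at 0.435, 1.00, 5.63, 4.93, 9.36 and 0.956 CPM in replicates 1 to 6. Replicates 3, 4 and 5 were high and replicates 1, 2 and 6 low. Slc38a4, an amino acid transporter of the placenta, held 2, 14, 14, 21, 107 and 8 counts and was highest in replicate 5. The filter asked for counts in all 6 libraries and left out genes low in 1 or more cultures, among them Igf2, Dio3 and Slc38a4. These 3 were singled out after their values were seen, so no test of their variation is given. Without the filter, a choice made after the data were seen, 31 of 45 other imprinted genes varied beyond counting noise, 68.9% against 50.2% of all 26854 genes. In the family with the filter these shares were 77.4% and 76.3%. Without the filter, genes with very few counts enter the share over all genes and can hardly be called. The chi-square test is also unreliable at such counts, as for Asb4, called with at most 5 counts in any library. The difference between the shares was not tested.

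Airn, the noncoding RNA antisense to Igf2r, was at 3.01 CPM in replicate 5 and at 0.813 to 1.49 CPM in the other libraries. Snrpn and Snurf, which share most of their exons, were fractional in all 6 libraries, and their levels are therefore uncertain.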
